A study of Saccharomyces cerevisiae with 8 samples.

Results

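The second open reading frame (ORF) from the 5′ end was examined in every Xrn1-sensitive unstable transcript (XUT) with at least 3 listed ORFs. XUTs are long noncoding RNAs of budding yeast that accumulate when the cytoplasmic exonuclease Xrn1 is absent, and the authors listed their ATG-initiated ORFs with footprint counts. ORFs outside the 2-micron plasmid were ordered along each transcript by ascending start on the plus strand and by descending end on the minus strand, and the ORF in second place was taken. This gave 1343 second ORFs, 1 from each of 1343 XUTs, among 13941 listed ORFs in 1637 XUTs. Of the listed ORFs, 29 lay on the plasmid and were not ordered. No measured value entered the choice.

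Ribosome profiling (Ribo-seq), which sequences RNA protected by ribosomes, had been performed on 4 conditions of Saccharomyces cerevisiae strain BY4741. The conditions were upf1 mutant cells with cycloheximide (upf1 + CHX), upf1 mutant cells without it (upf1), wild-type cells with cycloheximide (WT + CHX) and wild-type cells without it (WT). All were MATa and carried deletion alleles of HIS3, LEU2, MET15 and URA3, and the upf1 cells carried kanMX4 at UPF1 in addition. CHX, which blocks translation elongation, was given for 15 min to mid-log cultures (OD600 of 0.5) in YPD at 30 °C. The labels describe 8 libraries with 2 biological replicates per condition, but the deposited table holds 1 count and 1 phase score per ORF and condition. No spread between cultures could therefore be computed, and no p-value is given for any difference. Intervals are 95% exact binomial (Clopper-Pearson) intervals or derive from them, and they cover counting error only.

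In the scanning model of translation, ribosomes load at the 5′ end of an RNA and usually begin at the first AUG they recognise, so an ORF further downstream is reached by leaky scanning past the first start codon or by reinitiation after the first stop codon. The bases around the AUG, above all a purine at position −3, affect recognition, and short first ORFs are known to permit reinitiation more readily than long ones. Upf1 is the RNA helicase at the core of nonsense-mediated decay, which removes RNAs whose translation ends far from a normal 3′ end.

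Sequences are shown for the members on which the results turn, since they let the start context, the stop and the spacing be read directly. They were read from the R64 reference, 5′ to 3′ on the coding strand, with the 3 bases before the ATG and the stop codon included. The start codon and the stop codon are in capitals, and chromosomes are given in Arabic numerals. The second ORFs of XUT0083 (chr3:29589-29645, plus strand) and XUT1724 (chr15:981371-981430, minus strand) were the most read among members free of any overlap. The second ORF of XUT1101 (chr4:1235966-1236091, minus strand) lies antisense to ARO10, which encodes phenylpyruvate decarboxylase. The second ORF of XUT1022 (chr3:309750-309890, minus strand) lies antisense to ADH7, an alcohol dehydrogenase gene. XUT0254 (chr4:1518334-1518372, plus strand) had the highest mean phase score. XUT1514 (chr12:928357-928518, minus strand) and XUT1693 (chr15:448201-448230, minus strand) each held the smallest read share ratio of 1 comparison between conditions.
XUT0083: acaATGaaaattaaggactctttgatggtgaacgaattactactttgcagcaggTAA
XUT1724: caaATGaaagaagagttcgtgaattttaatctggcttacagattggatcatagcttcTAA
XUT1101: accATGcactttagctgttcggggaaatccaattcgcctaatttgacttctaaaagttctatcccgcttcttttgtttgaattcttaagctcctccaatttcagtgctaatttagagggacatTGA
XUT1022: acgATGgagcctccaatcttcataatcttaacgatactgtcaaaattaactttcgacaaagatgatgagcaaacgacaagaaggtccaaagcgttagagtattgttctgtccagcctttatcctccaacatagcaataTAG
XUT0254: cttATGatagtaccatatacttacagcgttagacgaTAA
XUT1514: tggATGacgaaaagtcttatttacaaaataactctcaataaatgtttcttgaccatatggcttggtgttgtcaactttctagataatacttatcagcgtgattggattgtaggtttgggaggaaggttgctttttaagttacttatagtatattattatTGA
XUT1693: gtcATGttcaggttcggcacaccagttTAA

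In the closest arrangements the start codon of the second ORF shares bases with the stop codon of the first. A few such junctions are shown in windows of 30 bases, with the first ORF's stop codon and the second ORF's start codon in capitals. In XUT1121 (chr5:9570-9599, minus strand) and XUT1292 (chr8:204173-204202, minus strand) the letters ATGA hold the second ATG and the TGA of the first ORF. In XUT0860 (chr16:76754-76783, plus strand) the letters TGATG, and in XUT0717 (chr13:501225-501254, plus strand) the letters TAATG, hold the first ORF's stop followed by the rest of the second ATG.
XUT1121: tatcagacgaaaATGAataacgccgttaac
XUT1292: tacctgcgcaacATGAcatttccagaacta
XUT0860: tgctccttatTGATGttaatcaactcatcg
XUT0717: agtattttatTAATGatctcaattttcact

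Second ORFs were short and lay close to the first. Their length ran from 15 to 504 nt with a median of 51 nt, beside medians of 48 nt for the first ORFs, the third ORFs and all listed ORFs. Listed coordinates end before the stop codon. Their XUTs held 3 to 58 listed ORFs, with a median of 7, and 693 of the 1343 were on the plus strand. On the opposite strand of 750 second ORFs (55.8%) lay an annotated coding sequence (CDS), 4 overlapped a CDS on their own strand, and 589 overlapped none.

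More than any other arrangement, second ORFs started after the end of the first, as 774 of 1343 (57.6%) did. Their gap, the bases between the last sense codon of the first ORF and the second ATG, ran from 2 to 336 nt with a median of 44 nt. The other 569 (42.4%) overlapped the first ORF, 386 over its end and 183 nested inside it. The overlap over the end ran from 1 to 193 nt with a median of 17 nt. An overlap of exactly 1 nt, the ATGA arrangement, occurred in 64 pairs (4.77%), and a gap of exactly 2 nt, the TAATG or TGATG arrangement, in 26 pairs (1.94%). Among 10765 ORFs further downstream, 4.52% had that overlap and 2.09% that gap to the ORF before, and 37.7% overlapped it at all.

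**Figure D1:**
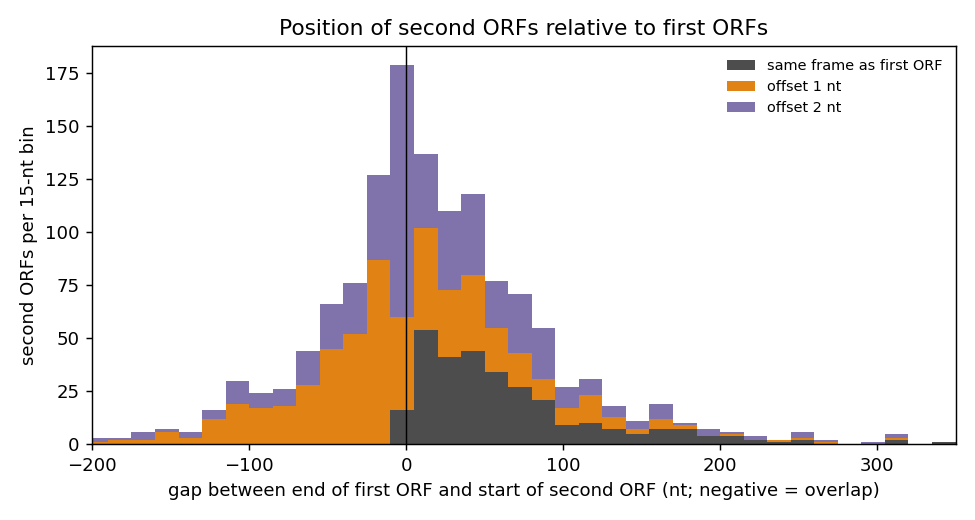
Number of second ORFs (vertical axis, per 15-nt bin) by the gap in nt between the end of the first ORF and the start of the second (horizontal axis, negative where they overlap), coloured by frame relative to the first ORF. No overlapping pair shares a frame, and the counts fall away on both sides of 0. A few longer overlaps fall left of the axis.

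Of the 774 that started after the first ORF, 298 (38.5%) were in its frame, 218 (28.2%) were offset by 1 nt and 258 (33.3%) by 2 nt. Overlapping pairs cannot share a frame because the second would then be part of the first, and of these 331 were offset by 1 nt and 238 by 2 nt. Between the starts of both ORFs, 1108 XUTs (82.5%) had no other ATG outside the frame of the first ORF, and in 229 XUTs the intervening ATG opened an ORF under 15 nt.

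The base at −3 of second ORFs was A in 28.7% (26.3 to 31.2%), G in 19.1% (17 to 21.3%) and T in 33.1% (30.5 to 35.6%). First ORFs of the same XUTs had A in 31.3% (28.8 to 33.8%), G in 22.3% (20.1 to 24.6%) and T in 28.5% (26.1 to 31%). A and G were thus each rarer at second than at first ORFs, with intervals that overlap for each base. No interval was taken for A and G together. All listed ORFs had A in 29.0% and G in 20.6%. A G directly after the ATG was found in 25.1% of second ORFs and in 23.5% of all listed ORFs. Stop codons were TAA in 39.2%, TGA in 36.5% and TAG in 24.3% of second ORFs.

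Footprint counts behaved as counts by position and not by frame. None of the 183 nested second ORFs held more reads than the first ORF around it in any condition, and they held 28.4% of those ORFs' reads in upf1 + CHX, 25.2% in upf1, 30.8% in WT + CHX and 24.5% in WT, beside 29.0% of their length. Reads in an overlap thus appear in the counts of both ORFs, and the phase score of an overlapping second ORF can hold the first ORF's reads. For this reason values are also given for the 455 second ORFs that overlapped no listed ORF on their strand. Of 1011 second ORFs of at least 30 nt, 63 occurred more than once in R64, and they held 0.0423% of all reads in second ORFs.

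Second ORFs held 7880 reads in upf1 + CHX, 4131 in upf1, 6168 in WT + CHX and 729 in WT. The first ORFs of the same XUTs held 13806, 6650, 10798 and 1138 reads in those conditions in the same order, and the third ORFs 3972, 2345, 3151 and 478. All listed ORFs outside the plasmid summed to 41067 reads in upf1 + CHX, 23650 in upf1, 33176 in WT + CHX and 4429 in WT. Such sums leave out everything but XUT ORFs, so library depth is unknown, and WT was the shallowest by this measure.

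Per length, second ORFs stood between the first and the third ORFs in each of the 4 conditions. They had 8.53 reads per 100 nt in upf1 + CHX, 4.47 in upf1, 6.68 in WT + CHX and 0.790 in WT. First ORFs had 16.1, 7.77, 12.6 and 1.33 reads per 100 nt in that order of conditions, and the third ORFs 4.61, 2.72, 3.66 and 0.555. The same order held without overlap. Second ORFs then had 7.46 reads per 100 nt in upf1 + CHX, 4.37 in upf1, 5.95 in WT + CHX and 0.780 in WT. First ORFs without overlap had 15.0, 6.47, 12.6 and 1.03, and the third ORFs 3.80, 1.82, 3.41 and 0.471. Transcript abundance was not measured here, and whether all ORFs of an XUT share it was not tested. The densities without overlap came from sets of XUTs that were not the same. These sets held 774, 455 and 504 ORFs in order along the transcript. The order without overlap is therefore not controlled for transcript level.

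**Figure D2:**
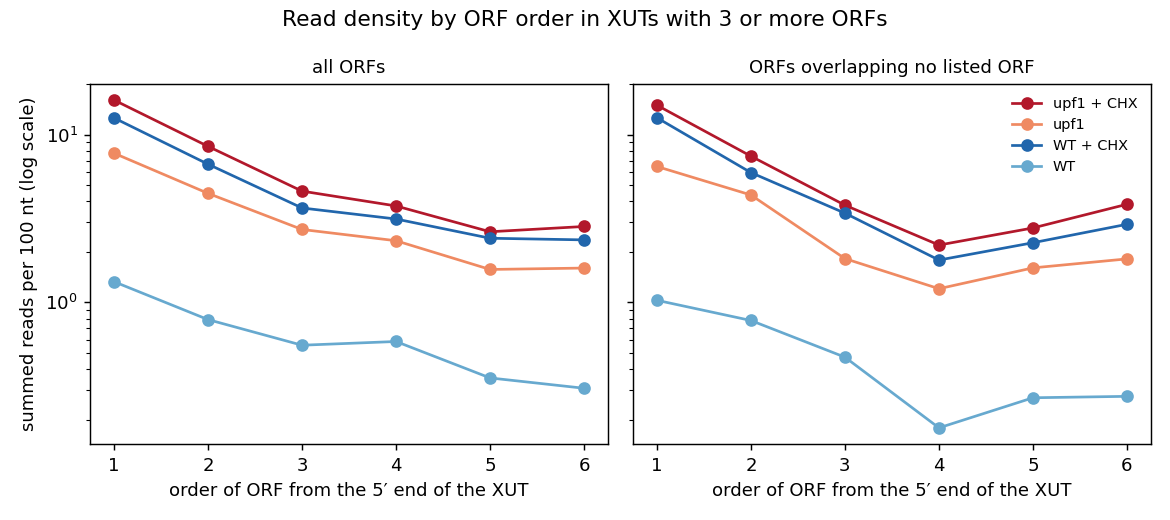
Summed reads per 100 nt (vertical axis, log scale) by the order of the ORF from the 5′ end (horizontal axis) in upf1 + CHX, upf1, WT + CHX and WT, for all ORFs (left) and ORFs without overlap (right). Second ORFs lie between the first and the third ORFs in all 4 conditions, at 8.53 reads per 100 nt in upf1 + CHX and 0.790 in WT for all ORFs.

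At least 1 read was found in 768 second ORFs (57.2%) in upf1 + CHX, 614 (45.7%) in upf1, 749 (55.8%) in WT + CHX and 303 (22.6%) in WT. The shares over all listed ORFs were 41.6%, 36.1%, 39.5% and 13.9% in the same order of conditions. Reads were present in all 4 conditions for 225 second ORFs, in each condition but WT for 240, and in none for 384. These shares depend on depth. At least 10 reads were present in 201 second ORFs in upf1 + CHX, 107 in upf1, 158 in WT + CHX and 6 in WT, and the 10 most-read second ORFs held 20.1%, 22%, 19.2% and 23.3% of the reads of all 1343 in that order.

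Second ORFs in XUTs with many ORFs were denser in reads. Those in XUTs with over 12 listed ORFs (325 members) had 15.0 reads per 100 nt in upf1 + CHX, 8.61 in upf1, 10.6 in WT + CHX and 1.08 in WT. Those in XUTs with 3 to 5 ORFs (482 members) had 4.53, 1.82, 4.26 and 0.679 in the same order. Without overlap the contrast was smaller, above all in WT. There the densities were 9.75, 7.02, 6.33 and 0.811 in XUTs with over 12 ORFs (99 members). They were 5.03, 1.65, 4.73 and 0.731 in XUTs with 3 to 5 (166 members). At the edge of the choice, the 192 second ORFs of XUTs with exactly 3 ORFs had 3.57, 1.53, 3.68 and 0.763 reads per 100 nt, and the 170 second ORFs of XUTs with exactly 2, which are not members, had 3.33, 1.38, 3.56 and 0.656.

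Position relative to coding genes also separated the members. Second ORFs antisense to a CDS had 5.98 reads per 100 nt in upf1 + CHX, 3.52 in upf1, 4.24 in WT + CHX and 0.516 in WT. Those overlapping no CDS had 12.9, 6.13, 10.9 and 1.27. The higher density away from coding sequences held in all 4 conditions, also on leaving out the 5 most-read members of each class, with 4.75 against 10.5 reads per 100 nt in upf1 + CHX. Whether fewer transcripts or fewer ribosomes per transcript lay behind this was not tested.

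Phase scores, which run from 0 to 1 and are higher where reads follow a single codon frame, were read at the threshold of 0.32 on at least 10 reads. By this rule 144 of 201 second ORFs (71.6%, 64.9 to 77.8%) were called in upf1 + CHX, 70 of 107 (65.4%, 55.6 to 74.4%) in upf1, 106 of 158 (67.1%, 59.2 to 74.3%) in WT + CHX and 5 of 6 (83.3%, 35.9 to 99.6%) in WT. Over all listed ORFs the rule called 72.6% in upf1 + CHX, 62.5% in upf1, 64.2% in WT + CHX and 68.1% in WT. The members' shares were thus near the background in every condition with more than 6 members.

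Without overlap the rule called 31 of 39 second ORFs (79.5%) in upf1 + CHX, 9 of 16 (56.3%) in upf1, 22 of 31 (71.0%) in WT + CHX and 3 of 3 in WT. Over all listed ORFs without overlap it called 78.1%, 66.9%, 73.0% and 100% in the same order. In all, 190 second ORFs were called in at least 1 condition, 38 of them without overlap. Of the 190, 89 were called in 1 condition, 69 in 2, 30 in 3 and 2 in all 4. No share over all listed ORFs stands beside these counts, so nothing particular to the members is read from them. The median score of second ORFs with at least 10 reads was 0.435 in upf1 + CHX, 0.417 in upf1, 0.395 in WT + CHX and 0.511 in WT.

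Within the same XUT, the second ORF usually held fewer reads than the first. Over the 774 non-overlapping pairs the second ORF held 3650 of 9341 reads (39.1%, 38.1 to 40.1%) in upf1 + CHX and 1996 of 4448 (44.9%, 43.4 to 46.4%) in upf1. In wild-type cells it held 2813 of 7604 (37.0%, 35.9 to 38.1%) with CHX and 340 of 730 (46.6%, 42.9 to 50.3%) without. Among pairs with at least 10 reads, the second ORF was the higher in 72 of 230 in upf1 + CHX, 41 of 117 in upf1, 59 of 205 in WT + CHX and 5 of 10 in WT. The median pair gave its second ORF 27.3% in upf1 + CHX, 28.6% in upf1, 24.4% in WT + CHX and 46.8% in WT. Some of these second ORFs overlap a listed ORF other than the first. In pairs free of any listed overlap the medians were 16.7% (127 pairs), 15.8% (56), 18.3% (114) and 67.1% (6) in the same order.

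**Figure D3:**
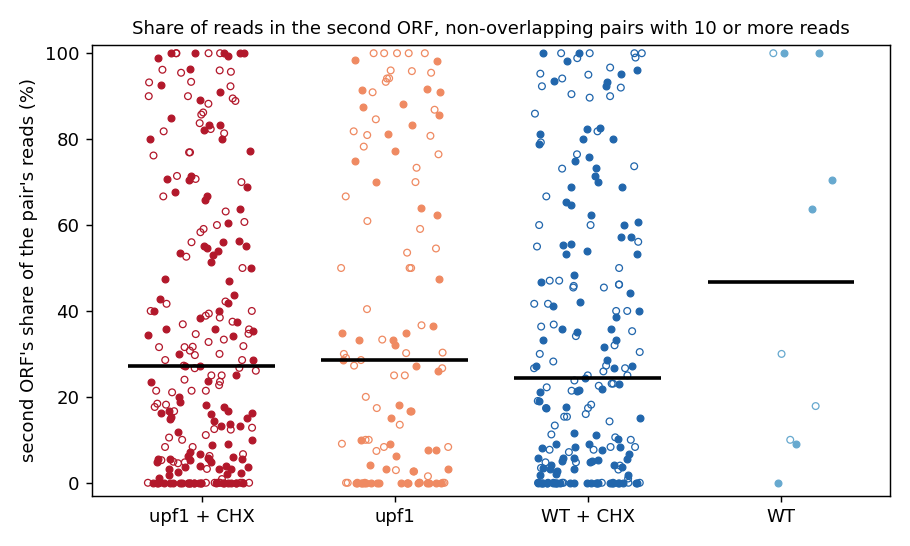
Share of a pair's reads in its second ORF (vertical axis, percent) for each non-overlapping pair with at least 10 reads in upf1 + CHX, upf1, WT + CHX and WT (horizontal axis); filled points are pairs free of any listed overlap, open points are others, and bars are medians. Pairs spread over the whole range from 0 to 100%, with medians of 27.3%, 28.6%, 24.4% and 46.8%.

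The pairs varied widely. The quartiles over pairs in upf1 + CHX were 5.56% and 60.3%, and 35 of the 230 had no read in the second ORF. A few pairs moved the summed share: without the 5 pairs with most reads it was 36.7% in upf1 + CHX, 38.5% in upf1, 36.1% in WT + CHX and 43.1% in WT. Per length, the second ORF had 0.451 times the read density of the first in upf1 + CHX, 0.573 times in upf1, 0.413 times in WT + CHX and 0.613 times in WT. The third ORF held 33.5%, 36.4%, 33.4% and 42.1% of the reads of the second and the third ORF where these did not overlap in the same order of conditions.

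When the same pairs were followed between conditions, the shift of the median pair was small. In 194 pairs with at least 10 reads in both, the second ORF's share was larger in upf1 + CHX than in WT + CHX in 83 and smaller in 89, and the median difference was 0 percentage points. In 112 pairs it was larger in upf1 + CHX than in upf1 in 42 and smaller in 55, again with a median difference of 0 points. Only 10 pairs reached 10 reads in both upf1 and WT, where it was larger in upf1 in 2 and smaller in 7 (median difference −2.21 points). The same 10 pairs gave 4 larger and 5 smaller in WT + CHX than in WT (median difference −0.575 points).

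The length of the first ORF went with the reads of the second. After first ORFs over 90 nt (98 pairs) the second held 14% of the pair's reads in upf1 + CHX, 18.1% in upf1, 14.1% in WT + CHX and 15.6% in WT. After first ORFs of up to 30 nt (309 pairs) it held 48.0%, 57.7%, 43.8% and 57.4%, and after first ORFs of 31 to 90 nt (367 pairs) 40.8%, 46.6%, 38.2% and 52.4%. A longer first ORF collects more reads by its length alone, so densities are the closer comparison. Second ORFs had 2.45, 1.67, 1.77 and 0.287 reads per 100 nt after first ORFs over 90 nt, against 7.27, 3.49, 5.99 and 0.664 after first ORFs of up to 30 nt. The lower density after long first ORFs was thus present in all 4 conditions. The ratio of second to first density was 0.242, 0.328, 0.244 and 0.276 after first ORFs over 90 nt, 0.511, 0.650, 0.459 and 0.818 after 31 to 90 nt, and 0.309, 0.457, 0.261 and 0.451 after up to 30 nt. The ratios moved with the leading pairs. Without the 5 most-read pairs of each class they were 0.165, 0.267, 0.185 and 0.362 after first ORFs over 90 nt, 0.372, 0.388, 0.384 and 0.569 after 31 to 90 nt, and 0.310, 0.365, 0.300 and 0.533 after up to 30 nt. In pairs free of any listed overlap, again without the 5 most-read, they were 0.353, 0.346 and 0.340 in upf1 + CHX after long, middle and short first ORFs. The ratio in upf1 + CHX thus hardly varied with the length of the first ORF in those pairs, while the second ORF had 2.10 reads per 100 nt after first ORFs over 90 nt against 5.50 after first ORFs of up to 30 nt.

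The gap between the ORFs went with the second ORF's share in the CHX conditions. At gaps of 2 to 30 nt (275 pairs) the second ORF held 47.2% in upf1 + CHX, 52.8% in upf1, 44.3% in WT + CHX and 47.2% in WT. At gaps of 31 to 100 nt (360 pairs) it held 35.5%, 38.7%, 37.2% and 45.7%, and at gaps over 100 nt (139 pairs) 33.7%, 44.9%, 25.6% and 47.2%. Without the 5 most-read pairs of each class the shares were 40.6%, 50.9%, 43.0% and 51.0% at 2 to 30 nt, against 31.5%, 40.5%, 27.3% and 37.9% at over 100 nt. The nearest second ORFs then had the largest share in each condition. In pairs free of any listed overlap and without the 5 most-read of each class, this order held in each condition except WT. The shares there were 35.3%, 42.6%, 35.4% and 38.8% at 2 to 30 nt, 26.7%, 26.3%, 28% and 38.9% at 31 to 100 nt, and 28.5%, 31.3%, 22.4% and 42.4% at over 100 nt.

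The base at −3 of the first ORF also went with the split. First ORFs with A at −3 (255 pairs) had the most reads per length, 19.7 per 100 nt in upf1 + CHX, 8.40 in upf1, 16.7 in WT + CHX and 1.16 in WT. Those with G (160 pairs) had the fewest, 10.5, 3.90, 8.51 and 0.811. Those with C or T (359 pairs) lay between, with 13.9, 6.32, 11.8 and 1.04. Where the first ORF had A, the second held 35.3%, 39.1%, 34.3% and 40.7% of the pair's reads in the same order. Where it had G, the second held 52.5%, 57.7%, 51.8% and 57.7%, and where it had C or T 36.7%, 45.0%, 33.2% and 45.7%. Leading pairs carried much of this: without the 5 most-read pairs of each class the shares were 39.6%, 50.8%, 41.3% and 44.2% after G, 33.4%, 38.5%, 32.9% and 42.9% after A, and 34.6%, 39.3%, 35.3% and 44.6% after C or T. The share after G was then the largest in each condition except WT. Second ORFs in the frame of the first ORF held 42.2%, 46.6%, 39.5% and 41.0%. Those offset by 1 nt held 36.9%, 41.6%, 35.4% and 48.7%, and those offset by 2 nt 37.5%, 45.2%, 35.8% and 51.0%. Leading pairs set the order of these shares, since without the 5 most-read pairs of each class the offset by 2 nt had the largest share in each condition. Second ORFs offset by 2 nt then held 39.1%, 44.8%, 37.1% and 49.4%, those offset by 1 nt 33.6%, 40.7%, 33.4% and 43.2%, and those in the frame of the first 33.6%, 36.4%, 35.4% and 40.4%.

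The 3 most-read members without overlap, XUT0083, XUT1724 and XUT1101, carried 97.8%, 98.8% and 90.8% of the reads of their pair over all conditions. The second ORF of XUT0083, 51 nt beginning 27 nt after the first ORF and near KAR4, a gene for a transcription factor of mating and meiosis, had 261 reads in upf1 + CHX, 214 in upf1, 156 in WT + CHX and 30 in WT. Its first ORF had 3, 4, 8 and 0 reads in the same order. Its phase score was 0.512 in upf1 + CHX, 0.316 in upf1, 0.482 in WT + CHX and 0.388 in WT, below the threshold of 0.32 in upf1 alone.

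The second ORF of XUT1724, 54 nt and near REV1, which encodes a translesion DNA polymerase, had 182 reads in upf1 + CHX, 61 in upf1, 161 in WT + CHX and 22 in WT. Its 15-nt first ORF had 1, 1, 3 and 0 reads. Of the reads in non-overlapping XUT ORFs the second ORF held 0.575%, 0.342%, 0.629% and 0.661% in the same order, and its scores of 0.569, 0.420, 0.494 and 0.584 passed 0.32 in all 4 conditions. The second ORF of XUT1101, 120 nt, had 100 reads in upf1 + CHX, 108 in upf1, 28 in WT + CHX and 12 in WT. Of the reads in non-overlapping XUT ORFs this was 0.316% in upf1 + CHX, 0.606% in upf1, 0.109% in WT + CHX and 0.360% in WT. Its scores of 0.491, 0.411, 0.354 and 0.515 also passed in all 4, and XUT1724 and XUT1101 were the 2 members that did so with at least 10 reads each time.

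**Figure D4:**
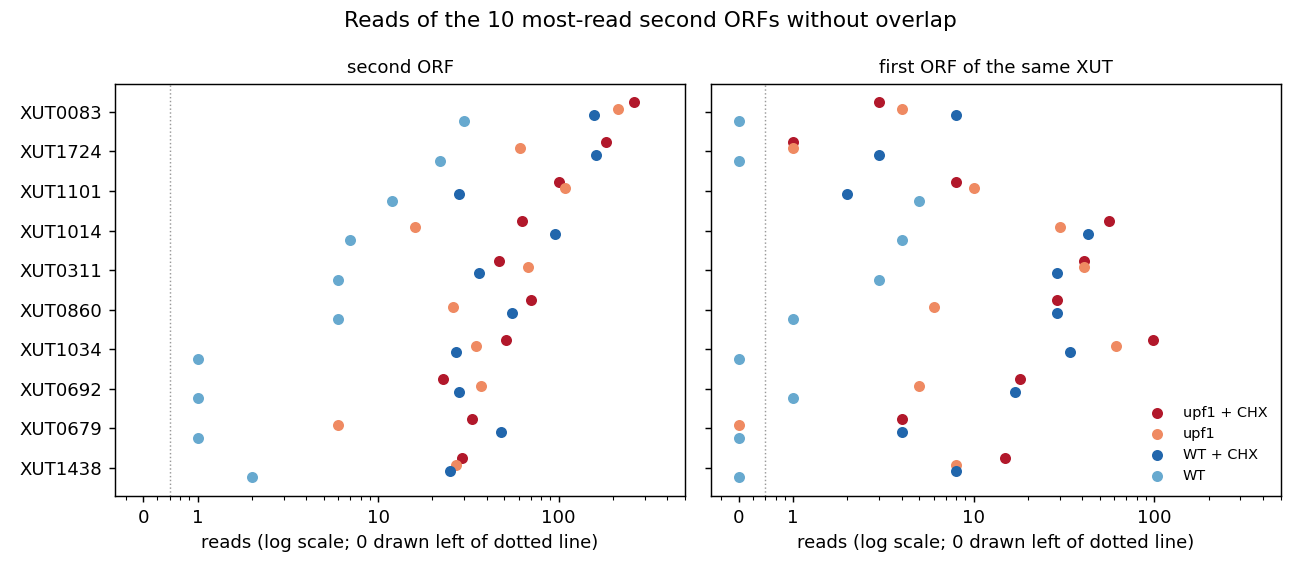
Reads (horizontal axis, log scale, 0 drawn left of the dotted line) in the 10 most-read second ORFs without overlap (left) and in the first ORFs of the same XUTs (right), in upf1 + CHX, upf1, WT + CHX and WT. XUT0083 and XUT1724 had 261 and 182 reads in the second ORF in upf1 + CHX and 3 and 1 in the first.

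Other leading members without overlap divided the reads more evenly with the first ORF. XUT1014, near DFP3, had 63 reads in its second ORF in upf1 + CHX, 16 in upf1, 95 in WT + CHX and 7 in WT, beside 56, 30, 43 and 4 in its first. XUT0311, antisense to EPL1, which encodes a subunit of the NuA4 histone acetyltransferase, had 47, 68, 36 and 6 reads in its second ORF and 41, 41, 29 and 3 in its first. Both ORFs of these XUTs were thus read in all 4 conditions. XUT1034, antisense to INH1, the gene of an inhibitor of the mitochondrial ATPase, had 51, 35, 27 and 1 reads in its second ORF and 98, 61, 34 and 0 in its first. In XUT1034 the first ORF was the higher one in each condition except WT.

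The second ORF of XUT0860, which starts on the last base of the first ORF's TGA as shown in the junction above, is antisense to GYP5, a gene for a GTPase-activating protein of Rab GTPases. It is 255 nt long and had 70 reads in upf1 + CHX, 26 in upf1, 55 in WT + CHX and 6 in WT. The 24-nt first ORF had 29, 6, 29 and 1 reads. Its score was 0.344 in upf1 + CHX, 0.355 in upf1 and 0.273 in WT + CHX, whereas the first ORF scored 0.986, 0.882 and 0.582 in those conditions. In XUT0717, antisense to the kinetochore gene SPC24, the other arrangement of this kind, the second ORF had 19, 1, 16 and 0 reads and the first 41, 2, 76 and 1. The 64 pairs with the ATGA overlap gave the second ORF 35.1% of the pair's reads in upf1 + CHX, 42.3% in upf1, 38.9% in WT + CHX and 52.0% in WT.

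XUT0692, antisense to CYB2, the gene of a lactate dehydrogenase of mitochondria, had 23 reads in its second ORF in upf1 + CHX, 37 in upf1, 28 in WT + CHX and 1 in WT. XUT0679, antisense to the telomere-protein gene RIF2, had 33, 6, 48 and 1. XUT1438, near YKL070W, had 29, 27, 25 and 2. These 3 members had at most 2 reads in WT, where no level can be read.

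Among members that overlapped another listed ORF, reads cannot be assigned to 1 of the ORFs. XUT1253 led and lies antisense to CLD1, a gene for an enzyme that removes acyl chains from cardiolipin, with 232 reads in upf1 + CHX, 56 in upf1, 164 in WT + CHX and 3 in WT, and shares 44 nt with its first ORF. XUT1341, antisense to COX5B, a cytochrome c oxidase subunit gene, followed with 156, 121, 109 and 8 reads and is nested in its first ORF. XUT0541 lies over a Ty4 long terminal repeat and had 159, 38, 121 and 7 reads. XUT1022 starts 124 nt after its first ORF and overlaps another listed ORF. It had 177 reads in upf1 + CHX, 113 in upf1, 86 in WT + CHX and 17 in WT, while its first ORF had 8, 7, 1 and 0.

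The second ORF's share of the pair's reads over all conditions was ranked among 49 non-overlapping pairs with at least 100 reads. XUT1106, antisense to ARO80, the gene of the activator of aromatic amino acid catabolism, led with 100%: its 390-nt second ORF had 55 reads in upf1 + CHX, 25 in upf1, 18 in WT + CHX and 6 in WT, and its first ORF had none. XUT0738, near the orotate phosphoribosyltransferase gene URA10, followed with 99.2%, from 119, 24, 98 and 0 reads. XUT1724 had 98.8%, XUT0083 97.8% and XUT1022 96.1%. These 5 pairs had at least 94.2% of their reads in the second ORF in every condition in which the pair was read. XUT1724 and XUT0083 overlap no listed ORF. The second ORFs of XUT1106 and XUT0738 each overlap 2 listed ORFs other than the first, and that of XUT1022 overlaps 1. Reads of those 3 members cannot be assigned to the second ORF alone.

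Of 14 members without overlap that had at least 10 reads in at least 3 conditions, XUT0254, near IRC4, had the highest mean phase score at 0.880. It had 27 reads in upf1 + CHX, 12 in upf1, 20 in WT + CHX and 2 in WT, and its scores in the first 3 were 0.740, 1 and 0.899. XUT1678, antisense to ARG1, which encodes argininosuccinate synthetase, had 0.588, XUT1303, near CIA2, 0.522, XUT1724 0.517 and XUT1101 0.443. The lowest were XUT1438 at 0.254, XUT1034 at 0.304, XUT0860 at 0.324, XUT1353, near YPS6, at 0.351 and XUT0863, antisense to CIN2, at 0.390. XUT0083 had a mean of 0.424.

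Conditions were compared by each ORF's read share, its reads over the summed reads of 9291 non-overlapping XUT ORFs. A second ORF was compared if it had at least 4 reads in each condition and 20 in both together, and it was called at a ratio of 2-fold. The 4 comparisons share conditions with one another, so their values stand side by side only. In the comparisons with WT, this minimum admits few members, mainly those high in WT.

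For upf1 against WT, 29 second ORFs could be compared and their median ratio was 0.841, beside 0.809 over the 133 listed ORFs compared. The share was at least 2-fold larger in 3 members (10.3%) and at least 2-fold smaller in 3 (10.3%), where 8.27% of all compared ORFs were larger and 21.1% smaller. The median depends on the total used, so values relative to the median of all compared ORFs were also taken, a choice made after seeing the data: the members' median was then 1.04, with 5 larger and 2 smaller. Scaling by the median ratio of 46 ORFs, those with at least 10 reads in every condition, turned the direction. The median ratio was then 1.88, beside 1.81 over all listed ORFs compared, with 14 members larger and 1 smaller. Only 47 listed ORFs had at least 10 reads in WT, so the choice of these 46 rests mainly on their reads in WT. XUT1341 had the largest ratio, 2.83 (1.39 to 6.69), with 121 reads in upf1 against 8 in WT. XUT0599, near YPT52, and XUT0311 each had 68 reads in upf1 against 6 in WT, and their intervals, 0.924 to 5.97, include 1. XUT1514, near SEI1, had the smallest, 0.150 (0.0948 to 0.237), with 37 reads in upf1 against 46 in WT. It shares 35 nt with its first ORF, which had 6 reads in upf1 against 11 in WT and a ratio of 0.102. XUT0109, near RHB1, followed with 17 reads in upf1 against 9 in WT and a ratio of 0.353 (0.149 to 0.898).

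For upf1 + CHX against WT + CHX, 169 second ORFs could be compared, with a median ratio of 1.03 beside 1.01 over 828 listed ORFs. In 11 (6.51%) the share was at least 2-fold larger and in 7 (4.14%) at least 2-fold smaller, where 7.97% of all compared ORFs were larger and 8.82% smaller. The largest was XUT0824, near ORT1, with 35 reads in upf1 + CHX against 6 in WT + CHX and a ratio of 4.72 (1.96 to 13.7). XUT1319, antisense to MNL1, had 30 against 8 reads and a ratio of 3.03 (1.36 to 7.66). XUT1101, which overlaps no listed ORF, had 100 against 28 reads and 2.89 (1.88 to 4.56). XUT0252, near FDC1, had 24 against 7 reads and 2.77 (1.16 to 7.62).

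At the low end of that comparison stood XUT0544, near YJR012C, with 7 reads in upf1 + CHX against 18 in WT + CHX and a ratio of 0.315 (0.111 to 0.789). XUT0791, near IMA2, had 14 against 30 reads and 0.378 (0.185 to 0.734). XUT1713, a 15-nt second ORF antisense to the N-acetyltransferase subunit gene NAT5, had 9 against 19 reads and 0.383 (0.153 to 0.889). XUT0204, near EXG2, had 7 against 14 reads and 0.404, with an interval of 0.138 to 1.07 that includes 1. These 4 rest on at most 30 reads in either condition.

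For WT + CHX against WT, 36 second ORFs could be compared, with a median ratio of 0.722 beside 0.654 over 162 listed ORFs. In 1 (2.78%) the share was at least 2-fold larger and in 9 (25%) at least 2-fold smaller, where 5.56% of all compared ORFs were larger and 30.2% smaller. Relative to the median of all compared ORFs, 8 were larger and 5 smaller. Scaling by the median ratio turned the direction here too, with a median ratio of 1.45 and 12 members larger and 1 smaller. The largest was XUT0541, with 121 reads in WT + CHX against 7 in WT and a ratio of 2.25 (1.06 to 5.71). The smallest was XUT0567, antisense to MNN4, a gene of mannosylphosphate transfer to cell-wall mannans, with 15 against 11 reads and 0.177 (0.0761 to 0.427). XUT1514 had 101 against 46 reads and 0.286 (0.200 to 0.414), XUT0544 had 18 against 8 and 0.293 (0.121 to 0.778), and XUT1101 had 28 against 12 and 0.304 (0.149 to 0.655).

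For upf1 + CHX against upf1, 139 second ORFs could be compared, with a median ratio of 1.08 beside 1.06 over 648 listed ORFs. In 19 (13.7%) the share was at least 2-fold larger and in 21 (15.1%) at least 2-fold smaller, where 17.7% of all compared ORFs were larger and 13.3% smaller. Scaling by the median ratio gave 8 larger and 27 smaller, with a median ratio of 0.900. Members with the largest ratios were XUT0774, near HOL1, with 26 reads in upf1 + CHX against 4 in upf1 and 3.66 (1.27 to 14.4), and XUT1511, near GAS2, with 72 against 12 reads and 3.38 (1.82 to 6.85). XUT0909, antisense to YPR027C, had 45 against 8 reads and 3.17 (1.48 to 7.78), and XUT0679 had 33 against 6 and 3.10 (1.28 to 9.05). First ORFs of the same XUTs gave 60 larger and 11 smaller of 234 compared.

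The smallest in that comparison was XUT1693, antisense to the cytochrome c1 gene CYT1. This 24-nt second ORF, nested in an 81-nt first ORF, had 6 reads in upf1 + CHX against 31 in upf1 and a ratio of 0.109 (0.0372 to 0.265). The first ORF around it had 83 against 71 reads, and its read share ratio was 0.659. XUT0567 had 11 against 43 reads and 0.144 (0.0670 to 0.284). XUT0014, near SWH1, had 10 against 32 reads and 0.176 (0.0772 to 0.367), with no read in its first ORF in either condition. XUT1678 had 10 against 20 reads and 0.282 (0.118 to 0.631).

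Phase scores of second ORFs were compared where both conditions had at least 10 reads. In 143 members the score was higher in upf1 + CHX than in WT + CHX in 82 and lower in 61, with a median difference of 0.0376 (interval −0.00296 to 0.0653 over members), beside 0.0470 over 669 listed ORFs. In 103 members it was higher in upf1 + CHX than in upf1 in 47 and lower in 56, with a median difference of −0.00927 beside −0.00465 over 436 listed ORFs. Without overlap that difference was 0.0813 over 16 members. The signs of the median differed with and without overlap.

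Only 6 members allowed a comparison with WT: XUT0083, XUT1724, XUT1101, XUT1022, XUT1514 and XUT0567. The score was lower in upf1 than in WT in all 6. The median difference was −0.151, beside −0.0702 over 46 listed ORFs. In each member except XUT1514 the WT score rested on fewer reads, such as 17 in WT against 113 in upf1 for XUT1022. Scores on few reads can be extreme: on 1 WT read the score was 1 in XUT1034 and 0 in XUT0791. Whether the unequal reads had a part in the lower scores was not tested. Against WT, 2 of the 6 scored higher and 4 lower in WT + CHX, and the median difference was −0.0655 beside −0.0410 over 47 listed ORFs. XUT0567 had the widest difference, with 0.234 in upf1 and 0.446 in WT + CHX, against 0.866 in WT on 11 reads.

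**Figure D5:**
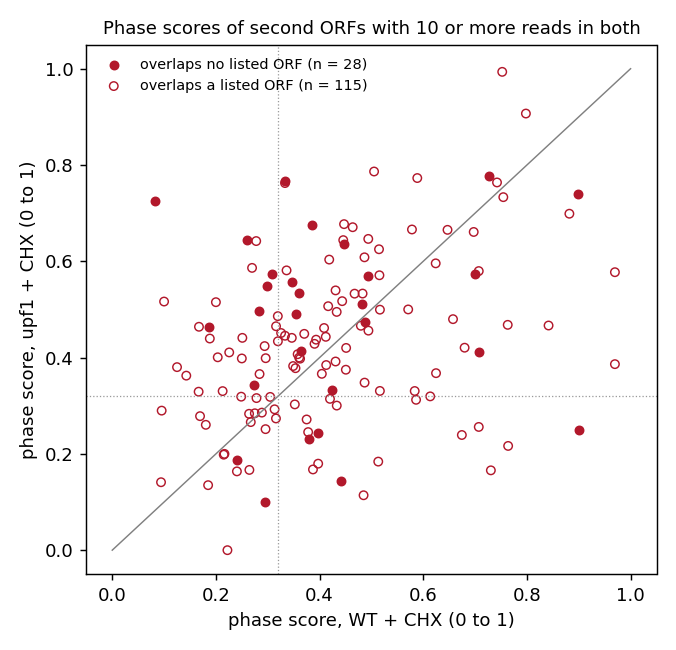
Phase score in upf1 + CHX (vertical axis, 0 to 1) against that in WT + CHX (horizontal axis, 0 to 1) for the 143 second ORFs with at least 10 reads in both; filled points overlap no listed ORF and open points do. Points scatter on both sides of the diagonal, 82 above and 61 below, and dotted lines mark the threshold of 0.32.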

How the data were processed

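Ribo-seq libraries from 4 conditions were the source of 1 deposited table of XUT ORFs. The build R64 and the tools HISAT2 2.2.0, cutadapt and UMI-tools are named per the submitters' processing notes. Not given in the sources used here: how ORFs were listed and scored, the read lengths and strand setting, and the way replicates were joined. The authors deposited a whole-number count of reads per ORF and condition, not scaled to library size, and a phase score per ORF and condition that is a fraction from 0 to 1. In the R64 sequence each of 13912 ORFs outside the plasmid opened with ATG and ended before a stop codon.

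ORFs were ordered, paired and compared with Python 3.11.15, pandas 2.3.3, NumPy 2.4.6 and SciPy 1.17.1, and the functions were tested on simulated data. Overlap means at least 1 nt on the same strand. The set of 9291 non-overlapping ORFs was taken in order of total reads. No test between conditions was run, because each condition has 1 merged value. p-values are therefore absent, and replicates do not enter any value. Named ORFs were the 10 most-read members without overlap and the 5 most-read with overlap, the 4 largest and 4 smallest ratios of each comparison, the 5 highest and 5 lowest mean scores, and the 5 largest pair shares; classes by ORF number, gap, length and start context were set after the table was seen. The members, lists and thresholds were chosen with earlier results of these data known. Alternatives changed read minimums, thresholds, totals, overlap and leading pairs.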

Additional observations from a re-analysis of the deposited data

Results flagged for a closer look

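By the main choice of members and pairs, the difference between upf1 and WT cells had opposite signs without and with CHX for both measures below. Whether these differences themselves differ was not tested, since each condition has 1 merged value. The median phase score difference was −0.151 for upf1 minus WT (6 members) and 0.0376 for upf1 + CHX minus WT + CHX (143 members). The interval of the latter over members, −0.00296 to 0.0653, includes 0. Over all listed ORFs the medians were −0.0702 (46 ORFs) and 0.0470 (669 ORFs), so the opposite signs were not particular to second ORFs. The 6 members are those with at least 10 reads in WT. All of them except XUT1514 had fewer reads in WT than in upf1, and whether this had a part was not tested.

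The second ORF's share of the reads of non-overlapping pairs differed by −1.70 percentage points for upf1 minus WT and by 2.08 points for upf1 + CHX minus WT + CHX. The intervals of the shares in upf1 (43.4 to 46.4%) and WT (42.9 to 50.3%) overlap. Those in upf1 + CHX (38.1 to 40.1%) and WT + CHX (35.9 to 38.1%) meet at their edges. With overlapping pairs included the differences were −0.729 and −0.0183 points, which have the same sign. Taking pairs read at least 10 times in both, the median difference was −2.21 points over 10 pairs for upf1 minus WT, although the summed share of these 10 pairs was 68.5% in upf1 and 55% in WT. The median difference was 0 points over 194 pairs for upf1 + CHX minus WT + CHX.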

How the results depend on the processing

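Of 92 recomputed values, 42 were counted as unchanged, 50 as moved and 0 as reversed. Most are counts, percentages or ratios, which cannot change sign, so the 0 reversals tell nothing about direction. The median phase score difference for upf1 + CHX against upf1 did change sign, from −0.00927 to 0.00695 with at least 20 reads in both conditions. No paired analysis was possible because the table merges the 2 replicates of each condition into 1 value, and for the same reason no replicate could be left out. At a phase score of at least 0.5 the share called was 35.8% in upf1 + CHX, 29.9% in upf1 and 27.2% in WT + CHX. Without overlap it was 79.5% in upf1 + CHX and 100% in WT (3 members). With overlapping pairs included the second ORF's share of pair reads was 36.3% in upf1 + CHX, 38.3% in upf1 and 39.0% in WT. In pairs free of any listed overlap it was 35.4% in upf1 + CHX and 33.7% in WT + CHX. Without the 5 pairs with most reads it was 36.7% in upf1 + CHX and 38.5% in upf1. The density of second over first ORFs free of any overlap was 0.498 in upf1 + CHX, 0.713 in upf1, 0.461 in WT + CHX and 0.871 in WT, and over all non-overlapping pairs without the 5 with most reads it was 0.409 in upf1 + CHX and 0.441 in upf1. Scaling by the median ratio of 46 ORFs gave 14 larger and 1 smaller second ORFs for upf1 against WT (93.3% of called members larger, 50% by the main total), 12 and 1 for WT + CHX against WT (92.3% beside 10.0%), and 8 larger for upf1 + CHX against upf1 (22.9% beside 47.5%). That scaling moved the log2 median over all compared ORFs to 0.86 for upf1 against WT, beside −0.31 by the main total. Its ORFs were picked mainly by their reads in WT, which can itself shift ratios over WT. No direction is therefore read from these counts by either scaling. A total that includes the plasmid gave 5 larger for WT + CHX against WT (41.7% of called members), and 66.7% of called members were larger for upf1 against WT. Relative to the median of all compared ORFs, an alternative chosen after seeing the data, 5 were larger for upf1 against WT, and 8 were larger and 5 smaller for WT + CHX against WT. At a fold of 3 the larger and smaller counts were 0 and 1 for upf1 against WT, 2 and 1 for upf1 + CHX against WT + CHX, 0 and 5 for WT + CHX against WT, and 4 and 7 for upf1 + CHX against upf1. With at least 40 reads there were 3 larger and 1 smaller for upf1 against WT, and 1 larger and 2 smaller for WT + CHX against WT. The median ratios were then above 1, at 1.31 over 13 members and 1.20 over 18, beside 1.05 and 0.935 over all listed ORFs compared. The same minimum gave 5 larger and 3 smaller for upf1 + CHX against WT + CHX, and 11 larger and 8 smaller for upf1 + CHX against upf1. Without overlap the counts were 1 and 1, 2 and 3, 0 and 1, and 6 and 5 in the order of comparisons just given, and the median score difference for upf1 + CHX against upf1 was 0.0813. The cause of these shifts was not tested. WT limits the depth, with 6 second ORFs at 10 reads or more.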
